A study of Mus musculus with 6 samples.

Results

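The dual-specificity MAPK phosphatases are enzymes that switch off MAP kinases. All 10 catalytically active members of the mouse family, Dusp1, Dusp2, Dusp4, Dusp5, Dusp6, Dusp7, Dusp8, Dusp9, Dusp10 and Dusp16, were taken by gene symbol from tables that list 23420 genes. All 10 were found and all 10 passed the filter on low counts. RNA was sequenced from lacrimal gland epithelium of mouse embryos at E14.5, collected by laser capture from sections of frozen embryos of mixed background, with 3 samples per group. The controls carried Le-Cre, a transgene whose Cre recombinase is active in the surface ectoderm of the eye and the glands that grow from it. The Pea3 TKO samples carried the same transgene together with Pea3-/-, Ermfl/fl and Er81fl/fl. The Pea3 (Etv4) alleles are therefore mutant in every cell of these embryos, whereas Erm (Etv5) and Er81 (Etv1) are removed only where Cre has acted. The labels do not tie samples to embryos, so the p-values measure the spread between these samples.

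A MAP kinase is active only while a threonine and a tyrosine of its activation loop both carry phosphate, and a dual-specificity phosphatase removes both. The family is divided by location and substrate. Dusp6, Dusp7 and Dusp9 lie in the cytoplasm and act mainly on ERK, the kinase that carries FGF signals through Ras. Dusp8, Dusp10 and Dusp16 prefer JNK and p38, the kinases of stress and cytokine responses. Dusp1, Dusp2, Dusp4 and Dusp5 are nuclear enzymes whose genes are quickly induced by the kinases they then inactivate. Dusp6 is a widely used readout of FGF signaling in embryos because its transcription follows ERK activity, and budding of the lacrimal gland depends on FGF10 from the mesenchyme around the epithelium. The Pea3 factors belong to the ETS family, which binds DNA at a GGAA core.

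The stretches just upstream of the transcription start are shown for the members on which the results turn, Dusp6 beside its paralog Dusp7, and the 3 JNK/p38-selective genes. They come from the RefSeq annotation of GRCm38.p6, which matched 8 of the 10 members. For Dusp1, Dusp8 and Dusp10 the whole window lies inside the gene as placed by GENCODE M21. The stretch before the outer end of these genes was not searched. The windows lie at chr10:99262981-99263230 on the plus strand for Dusp6, chr9:106368382-106368631 on the plus strand for Dusp7, chr7:142095285-142095534 on the minus strand for Dusp8, chr1:184034131-184034380 on the plus strand for Dusp10 and chr6:134792629-134792878 on the minus strand for Dusp16. Capitals mark the ETS letters CGGAAG or AGGAAG, which read CTTCCG or CTTCCT where they stand on the other strand. Each sequence runs 5′ to 3′ along the gene and ends at the base before the start.
Dusp6: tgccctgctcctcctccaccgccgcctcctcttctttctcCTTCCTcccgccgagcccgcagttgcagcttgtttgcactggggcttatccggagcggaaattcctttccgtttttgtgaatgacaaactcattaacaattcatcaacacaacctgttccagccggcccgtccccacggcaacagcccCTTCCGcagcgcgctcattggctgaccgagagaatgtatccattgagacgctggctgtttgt
Dusp7: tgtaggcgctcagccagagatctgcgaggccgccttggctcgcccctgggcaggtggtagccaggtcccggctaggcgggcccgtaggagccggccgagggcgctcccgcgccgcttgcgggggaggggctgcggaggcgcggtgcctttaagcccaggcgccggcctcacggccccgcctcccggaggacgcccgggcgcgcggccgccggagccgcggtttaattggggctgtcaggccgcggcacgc
Dusp8: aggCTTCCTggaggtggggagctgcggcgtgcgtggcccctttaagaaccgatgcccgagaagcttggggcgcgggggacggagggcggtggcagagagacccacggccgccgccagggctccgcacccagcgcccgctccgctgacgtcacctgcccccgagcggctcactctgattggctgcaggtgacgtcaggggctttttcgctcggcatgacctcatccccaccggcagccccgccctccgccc
Dusp10: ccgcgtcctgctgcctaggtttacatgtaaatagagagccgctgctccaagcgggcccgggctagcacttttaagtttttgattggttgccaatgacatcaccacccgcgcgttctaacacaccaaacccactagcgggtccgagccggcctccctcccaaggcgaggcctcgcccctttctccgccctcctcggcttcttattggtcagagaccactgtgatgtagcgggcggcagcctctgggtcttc
Dusp16: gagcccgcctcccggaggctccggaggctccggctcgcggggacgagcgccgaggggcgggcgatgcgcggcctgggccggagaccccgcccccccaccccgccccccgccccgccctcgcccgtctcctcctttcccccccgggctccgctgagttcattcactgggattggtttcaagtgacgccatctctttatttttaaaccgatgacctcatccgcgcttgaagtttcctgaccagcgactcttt
The Dusp6 window held the letters at 2 places, at -210 and -62 from the start, both on the opposite strand. The Dusp8 window held them at -247, while those of Dusp7, Dusp10 and Dusp16 held none. Among the other members matched, Dusp2 and Dusp5 held them once each and Dusp1 did not. Searched on both strands, these letters stood in 39.2% of 32851 upstream windows of 250 bases, so a match is common. The longer ETS letters CCGGAAGT or CAGGAAGT, which include the shorter ones, were in 5.5% of all windows and in none of the 8. The cyclic AMP response letters TGACGTCA, found in 1.5% of all windows, stood in those of Dusp1 at -143 and of Dusp8 at -107 and -63. These matches describe the letters in the windows and do not show binding.

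Libraries held 14194775 to 17860140 counts, and 3 counts corresponded to between 0.169 and 0.210 CPM (counts as a share of the library, scaled with TMM factors). The targeted genes were lower in every Pea3 TKO sample. Etv5 fell from 1058 ± 127 to 139 ± 45.8 CPM, Etv4 from 151 ± 29.1 to 19.5 ± 8.79 CPM and Etv1 from 31.8 ± 2.79 to 9.52 ± 0.410 CPM (mean ± SD, n = 3 here and below). The epithelial marker Epcam stood at 1201 to 1499.9 CPM in all 6 samples, while summed markers reached at most 7.76 CPM for endothelium and 26.8 CPM for leukocytes. Summed erythroid markers ran from 35.96 to 120 CPM in the controls, 51.7 and 61.2 CPM in Pea3 TKO 1 and 2, and 237 CPM in Pea3 TKO 3, where the embryonic globin Hbb-y reached 204 CPM. The samples differed in embryo sex. Summed CPM of 4 Y-linked genes was 175, 136 and 153 in the controls and 0.445, 0.210 and 139 in Pea3 TKO 1 to 3, and Xist, the RNA of the inactive X chromosome, stood at 106 and 32.5 CPM in Pea3 TKO 1 and 2 against at most 0.436 CPM in the other samples. The fibroblast genes Dcn and Lum were also high in Pea3 TKO 1 and 2, at 60.5 to 79.9 CPM, against at most 8.39 CPM in Pea3 TKO 3 and the controls. Values of Pea3 TKO 3, the sample closest to the controls in Y-linked and fibroblast genes, are therefore given beside the group results. Among the mutants Pea3 TKO 3 also held the most RNA of the targeted genes. Etv5 stood at 88.2, 152 and 177 CPM in Pea3 TKO 1 to 3. Etv4 stood at 10.9, 19.1 and 28.4 CPM there, and Etv1 at 9.21, 9.37 and 9.98 CPM. In bulk tissue, fewer cells of a type and less RNA per cell cannot be told apart.

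Of the 10 phosphatases, 3 fell in Pea3 TKO (Dusp6, Dusp4 and Dusp9), 3 rose (Dusp8, Dusp10 and Dusp16) and 4 did not pass the test. The edgeR quasi-likelihood test called a gene at an adjusted p under 0.05. By that rule 25.0% of the 13087 genes tested were called, 13.6% higher and 11.3% lower. All 3 JNK/p38-selective members were higher, and 2 of 3 ERK-selective members were lower. Among the 4 nuclear members only Dusp4 passed. Ranked by log2 fold change among all genes tested, Dusp6 was number 226 and Dusp4 number 341 from the lowest, and Dusp10 was number 476 from the highest.

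**Figure D1:**
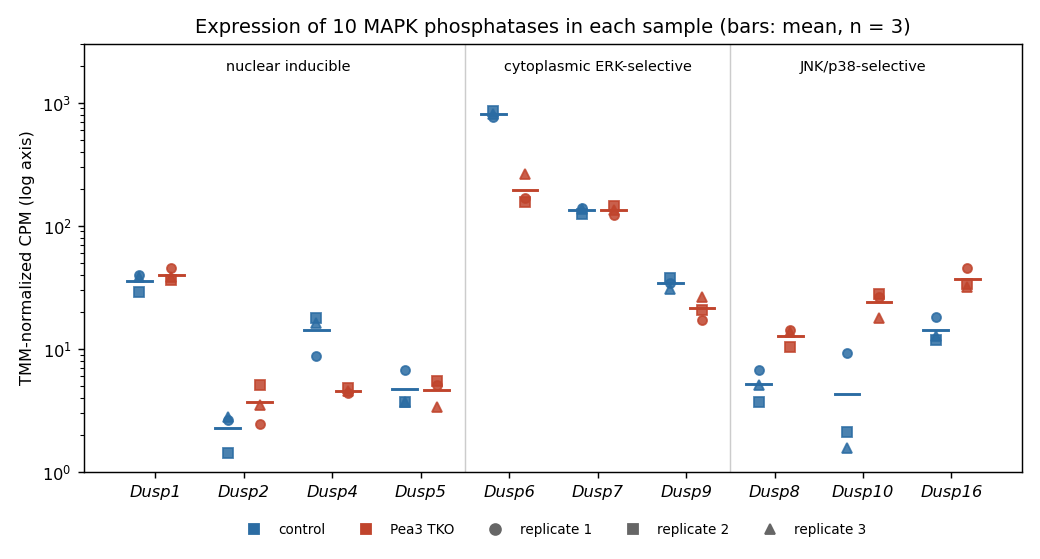
Expression of each MAPK phosphatase in every sample, in TMM-normalized CPM on a log axis, with replicates as symbols and the mean of 3 samples as a bar. Controls (blue) and Pea3 TKO samples (red) are apart for Dusp4, Dusp6, Dusp9, Dusp8, Dusp10 and Dusp16 and overlap for the other 4. Among the 13087 genes tested, 25.0% were called in either direction. The share of those genes whose groups are apart is not given here, so whether the family separates more often was not tested.

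Dusp6, the feedback phosphatase of FGF and ERK signaling, was the most abundant member in both groups. It stood at 761, 852 and 816 CPM in control 1 to 3 and at 168, 157 and 266 CPM in Pea3 TKO 1 to 3. The groups were far apart, and Pea3 TKO 3 kept the most of it. The mean fell from 810 ± 45.7 to 197 ± 59.9 CPM, a 4.11-fold difference, with a log2 fold change of -2.04 (SE 0.19, 95% interval -2.47 to -1.61, adjusted p = 1.68e-04). Pea3 TKO 3 set alone against the controls gave -1.60 (adjusted p = 0.00332). The study singled out Dusp6 on these same samples, so its direction here is not independent evidence. The paper also reported lower Dusp6 in the Pea3 TKO bud by RNA in situ hybridization. By chromatin immunoprecipitation it found Erm bound at the Dusp6 locus in P4 lacrimal gland cells. The gene lies at chr10:99263231-99267489 on the plus strand (GRCm38, GENCODE M21).

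Dusp7, the closest cytoplasmic relative of Dusp6, did not pass the test. Its level was 140, 124 and 137 CPM in the controls and 123, 146 and 133 CPM in Pea3 TKO, so the groups overlapped. The means were 134 ± 8.44 and 134 ± 11.7 CPM. The log2 fold change was 0.0044 (SE 0.12, adjusted p = 0.984), and its 95% interval of -0.26 to 0.27 is the narrowest of the family. The gene lies at chr9:106368632-106375724 on the plus strand.

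Dusp9, the X-linked ERK-selective member, fell by a smaller amount. It stood at 34.2, 37.5 and 30.6 CPM in the controls and at 17.1, 20.8 and 26.4 CPM in Pea3 TKO. No value overlapped, although Pea3 TKO 3 came within a few CPM of control 3. The log2 fold change was -0.67 (SE 0.21, 95% interval -1.13 to -0.21, adjusted p = 0.0400), a 1.59-fold difference. This call was the least firm of the 6. It was lost without any single sample except Pea3 TKO 3, with adjusted p values up to 0.133 and log2 fold changes between -0.74 and -0.53. Without Pea3 TKO 3 the log2 fold change was -0.85 and the call was kept (adjusted p = 0.0240). It was also lost with the replicate number as a block (adjusted p = 0.0509). Pea3 TKO 3 alone differed from the controls by -0.36 (adjusted p = 0.443), and sex and genotype cannot be told apart for Pea3 TKO 1 and 2. The gene lies at chrX:73639419-73643514 on the plus strand.

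Among the nuclear members, Dusp4, which is induced by ERK and acts on ERK and JNK, was the only gene to pass the test. It stood at 8.79, 17.9 and 16.3 CPM in the controls and at 4.38, 4.82 and 4.58 CPM in Pea3 TKO. The controls varied about 2-fold, with control 1 lowest, while the Pea3 TKO samples lay close together. The mean fell from 14.3 ± 4.85 to 4.60 ± 0.222 CPM, 3.11-fold, with a log2 fold change of -1.64 (SE 0.34, 95% interval -2.39 to -0.88, adjusted p = 0.00783). It was called without any single sample, and Pea3 TKO 3 alone gave -1.63 (adjusted p = 0.146). The gene lies at chr8:34807297-34819894 on the plus strand.

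Dusp1, an early response gene that acts on p38 and JNK as well as ERK, was the most abundant nuclear member. It stood at 40.1, 29.0 and 38.4 CPM in the controls and at 45.3, 36.4 and 38.2 CPM in Pea3 TKO, with overlapping groups. The log2 fold change was 0.16 (SE 0.18, 95% interval -0.24 to 0.56, adjusted p = 0.561). Dusp2, best known from activated immune cells, was near the lower end of expression at 1.43 to 2.80 CPM in the controls and 2.48 to 5.10 CPM in Pea3 TKO, and gave 0.69 (95% interval -0.53 to 1.91, adjusted p = 0.396). Dusp5, a nuclear enzyme that is specific for ERK, stood at 3.68 to 6.71 CPM in the controls and 3.41 to 5.45 CPM in Pea3 TKO, and gave -0.018 (95% interval -1.0 to 0.97, adjusted p = 0.982). For both of these low genes the interval reaches a change of 2-fold in at least 1 direction, so a change of that size was not excluded. Exons of Dusp5 overlap an antisense gene on the opposite strand, and the strand setting of the counting is not given in the sources used here, so its reads cannot be separated from those of its partner.

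All 3 JNK/p38-selective members rose. Dusp16, which binds JNK and shuttles between nucleus and cytoplasm, stood at 18.3, 11.8 and 12.7 CPM in the controls and at 45.2, 34.0 and 31.8 CPM in Pea3 TKO. The lowest Pea3 TKO value was well above the highest control. The mean rose from 14.3 ± 3.49 to 37.0 ± 7.15 CPM, 2.59-fold, with a log2 fold change of 1.37 (SE 0.24, 95% interval 0.85 to 1.90, adjusted p = 0.00325). It was called without any single sample, and Pea3 TKO 3 alone gave 1.17 (adjusted p = 0.0944).

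Dusp10, a phosphatase of p38 and JNK found in both nucleus and cytoplasm, showed the widest difference. It stood at 9.30, 2.12 and 1.56 CPM in the controls, which are 165, 34 and 24 counts, and at 26.3, 28.0 and 17.9 CPM in Pea3 TKO. Control 1 stood far above the other controls and still below every Pea3 TKO sample. The mean rose from 4.33 ± 4.32 to 24.0 ± 5.42 CPM, 5.51-fold, with a log2 fold change of 2.46 (SE 0.58, 95% interval 1.16 to 3.77, adjusted p = 0.0142). Without control 1 the log2 fold change was 3.70, and without control 2 it was 2.13 and no longer passed (adjusted p = 0.0539). Pea3 TKO 3 alone gave 2.06 (adjusted p = 0.240).

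Dusp8, which prefers JNK and is best known from brain, heart and muscle, stood at 6.76, 3.68 and 5.07 CPM in the controls and at 14.3, 10.3 and 13.7 CPM in Pea3 TKO. Again control 1 was the highest control, and again the groups were apart. The mean rose from 5.17 ± 1.55 to 12.8 ± 2.13 CPM, 2.47-fold, with a log2 fold change of 1.30 (SE 0.33, 95% interval 0.57 to 2.04, adjusted p = 0.0187). The call was lost without control 2, control 3, Pea3 TKO 1 or Pea3 TKO 3, with adjusted p values of 0.0503 to 0.0639 and log2 fold changes of 1.11 to 1.29. Pea3 TKO 3 alone gave 1.42 (adjusted p = 0.139). The genes lie at chr6:134715468-134792625 on the minus strand for Dusp16, chr1:184013302-184075636 on the plus strand for Dusp10 and chr7:142079490-142095843 on the minus strand for Dusp8.

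**Figure D2:**
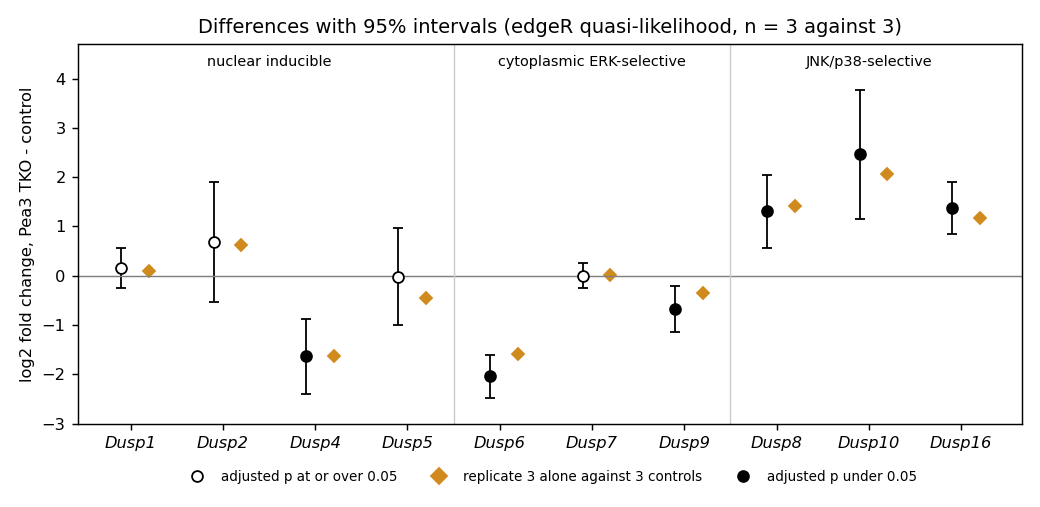
Log2 fold change of each MAPK phosphatase between Pea3 TKO and control, with 95% intervals from the fit of 3 against 3 samples (circles) and the value of Pea3 TKO 3 alone against the 3 controls (diamonds). Filled circles have an adjusted p under 0.05, and for all 6 of these genes the diamond lies on the same side of 0. Its sample is also part of the circle, so the shared side is not a separate check.

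Pea3 TKO 3 belongs to the samples behind the calls, and the groups of all 6 called members were apart. Its position is therefore not a separate check of them. In each of the 6 called members, Pea3 TKO 3 alone lay outside the range of the controls. Only Dusp6 passed the test in that setting, which assumes that the single sample varies like the controls. The same was true when Y-linked expression was added as a covariate to the fit of all samples. Dusp6 was then called (-1.60) and the other members were not, with adjusted p values of 0.121 for Dusp4, 0.490 for Dusp9, 0.110 for Dusp8, 0.165 for Dusp10 and 0.0701 for Dusp16. With that covariate 799 genes were called in all, against 3268 without it.

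The makeup of the family was compared on the scale of CPM per kilobase of exon, which allows levels of different genes to be set side by side. In the controls Dusp6 stood at 289 ± 16.3 CPM per kb, followed by Dusp7 at 41.6 ± 2.63, Dusp1 at 15.1 ± 2.52, Dusp9 at 12.5 ± 1.27 and Dusp4 at 5.22 ± 1.77 CPM per kb. The remaining 5 lay between 1.08 and 1.90 CPM per kb. The ranges of Dusp1 and Dusp9 overlapped, as did those of every neighboring pair from Dusp5 down, so their order is not resolved. In Pea3 TKO the order began with Dusp6 at 70.4 ± 21.4, Dusp7 at 41.7 ± 3.64 and Dusp1 at 16.8 ± 1.97 CPM per kb. Dusp10 came next at 8.61 ± 1.94 CPM per kb, overlapping Dusp9 at 7.86 ± 1.72, and Dusp16 followed at 4.92 ± 0.950. Dusp4 was the lowest member at 1.68 ± 0.0810 CPM per kb, although Dusp5 overlapped it.

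Summed over the 10 members, expression went from 372 ± 10.8 to 159 ± 19.2 CPM per kb. Without Dusp6 the sums were 82.3 ± 5.60 and 88.5 ± 3.34 CPM per kb, so the lower sum lay in Dusp6. ERK-selective members made up 91.2, 93.6 and 92.3% of the family in the controls and 71.0, 73.6 and 80.8% in Pea3 TKO. JNK/p38-selective members made up 1.99, 0.813 and 0.882% in the controls and 12.5, 11.2 and 7.45% in Pea3 TKO. The shares of neither class overlapped between groups. Nuclear members kept similar sums, at 23.6 ± 2.24 and 22.7 ± 1.49 CPM per kb, while their share went from 6.37 ± 0.720 to 14.47 ± 2.43%. These shares add to a whole, so the loss of Dusp6 alone raises those of all others.

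**Figure D3:**
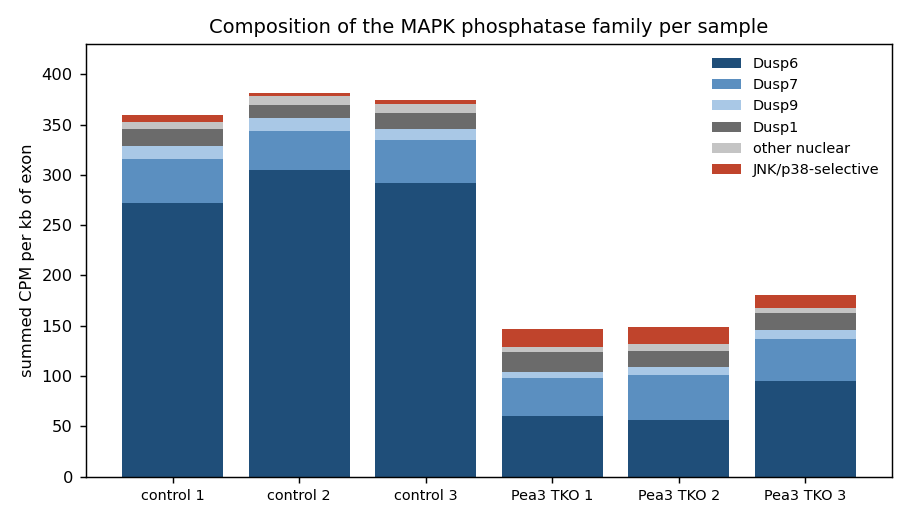
Summed expression of the MAPK phosphatases in each sample, in CPM per kb of exon, divided by member or class. The blue ERK-selective parts fall from 328 to 357 CPM per kb in the controls to between 105 and 146 CPM per kb in Pea3 TKO, and the red JNK/p38-selective part is at least 13.5 CPM per kb in each Pea3 TKO sample.

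Ratios within a sample do not depend on the scaling between samples. Dusp6 over Dusp7, per kb, was 6.24, 7.88 and 6.85 in the controls and 1.57, 1.23 and 2.29 in Pea3 TKO. Dusp6 over Dusp1 was 16.1, 24.9 and 18.0 in the controls and 3.15, 3.66 and 5.91 in Pea3 TKO. Dusp6 over Dusp10 was 81.7, 401 and 522 in the controls and 6.38, 5.60 and 14.9 in Pea3 TKO, with control 1 far below the other controls. Dusp10 was taken as the JNK/p38-selective member with the highest mean over all 6 samples. It led Dusp16 only in Pea3 TKO, at 8.61 against 4.92 CPM per kb, and not in the controls, at 1.55 against 1.90. The choice of Dusp10 thus favors a difference between the groups in this ratio. The differences of mean log2 ratio were -2.08, -2.25 and -4.99. The groups were apart for all 3 ratios, and the exact two-sided permutation p was 0.10 for each, raw and adjusted over the 3, which is the smallest that 3 samples against 3 can give.

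The genes most like the leading members in profile were sought among 9726 genes, by the root mean square difference of centered log2 CPM over the 6 samples. For Dusp6 they were Rhoj (0.103), a small GTPase, the Mediator subunit Med18 (0.110) and Car8 (0.117), a carbonic anhydrase relative. Rhoj stood at 203, 215 and 256 CPM in the controls and 47.0, 46.4 and 72.2 CPM in Pea3 TKO, with Pea3 TKO 3 the highest mutant as for Dusp6. For Dusp1 they were Tbc1d20 (0.0494), the phosphodiesterase Pde4b (0.0531) and the zinc finger gene Zmym5 (0.0623), none of which separated the groups. These likenesses follow from the search over the same 6 samples and are not separate evidence.

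Most markers of surface ectoderm and epidermis were higher in Pea3 TKO, as were the JNK/p38-selective members. Of 15 such markers, 14 were higher in Pea3 TKO and none lower, against 13.6% higher over all genes tested. The transcription factor gene Trp63 was the marker not called. Their summed level was 2435, 1204 and 1141 CPM in the controls and 9247, 8140 and 6726 CPM in Pea3 TKO. Control 1 was thus the highest control for these markers, as it was for Dusp8, Dusp10 and Dusp16, and Pea3 TKO 3 the lowest mutant, as it was for Dusp10 and Dusp16. The order of the mutants differed elsewhere. Dusp8 was lowest in Pea3 TKO 2 (10.3 CPM), and Dusp10 was highest there (28.0 CPM) rather than in Pea3 TKO 1. The basal keratins Krt5 and Krt15 stood at 363 and 720 CPM in control 1 and at 83.2 and 63.1 CPM in control 3. The paper found Krt14, Krt5, Sfn and Krt7 expressed within the lacrimal gland primordia of Pea3 TKO. The part of cells with such markers in the rise of the phosphatases was not tested. Markers of the bud epithelium went in both directions, with 5 of 11 higher, 4 lower and a median log2 fold change of 0.37. The transcription factors Sox10 (-2.43) and Six2 (-1.97) fell, the keratin Krt8 rose (1.61, adjusted p = 0.00162), and Epcam gave -0.17 (adjusted p = 0.311). Summed mesenchyme markers were 354 to 404 CPM in the controls, 739 and 930 CPM in Pea3 TKO 1 and 2, and 338 CPM in Pea3 TKO 3. In the controls and Pea3 TKO 3 most of this sum was Foxc1 and Foxc2, which did not follow the fibroblast genes. Of the 13 mesenchyme markers tested, 11 had a log2 fold change above 0, and the median was 2.31. Only Dcn and Lum were called higher, and Foxc2 was called lower (-0.76, edgeR quasi-likelihood, adjusted p = 0.00694). Foxc1 stood at 184 to 229 CPM in the controls and 259 to 279 CPM in Pea3 TKO (same test, adjusted p = 0.0507). The part of mesenchyme in these results was not tested either.

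**Figure D4:**
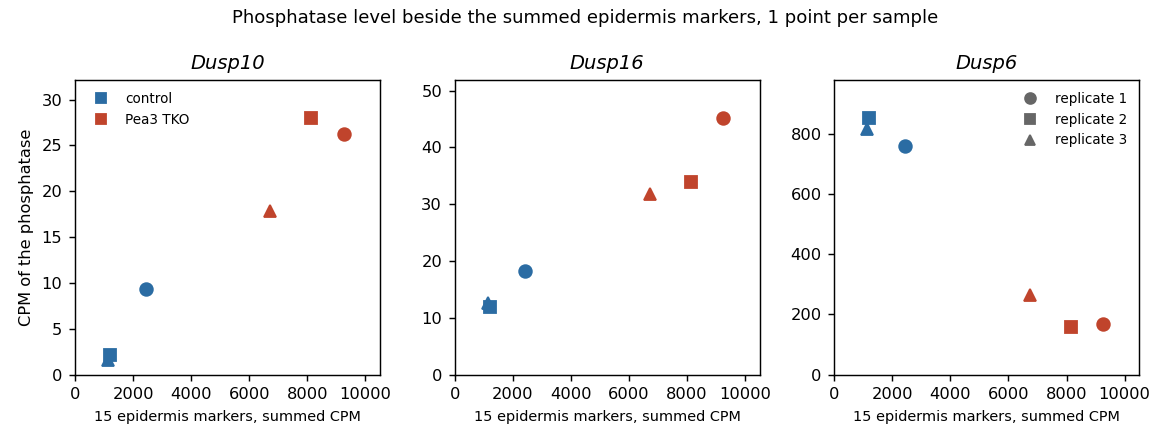
Level of Dusp10, Dusp16 and Dusp6 in CPM against the summed CPM of 15 epidermis markers, with 1 point per sample. Control 1 lies to the right of the other controls and is higher than them in Dusp10 and Dusp16.

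Other feedback genes and regulators of FGF and ERK signaling, not all of them inhibitors, were compared as a list of 14 genes, of which 13 were tested. None rose, and 4 fell (Spry4, Spry1, Il17rd and Flrt3), with a median log2 fold change of -0.50 against 0.0094 over all genes tested. Among all genes tested 13.6% were higher and 11.3% lower, and the counts of this and the following lists stand beside these shares. Spry4, a Sprouty inhibitor of Ras activation that the study also named, stood at 27.6, 53.2 and 54.0 CPM in the controls and 5.08, 6.92 and 7.64 CPM in Pea3 TKO (log2 fold change -2.78, SE 0.30, adjusted p = 3.34e-04). Il17rd, the receptor antagonist Sef, gave -1.60 (adjusted p = 6.85e-04) and Spry1 gave -0.85 (adjusted p = 6.54e-04). Flrt3, a membrane partner of FGF receptors, gave -0.50 (adjusted p = 0.0180). Without control 1 the count of this list was 7, and the other settings that left out a sample gave 3 to 5.

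Early response genes, whose transcription ERK and other MAP kinases switch on within minutes, went in both directions. Of 14 tested out of 17 listed, 8 were higher (Fos, Fosl2, Jun, Junb, Egr1, Egr2, Atf3 and Zfp36) and 3 lower (Myc, Srf and Nr4a1), with a median of 1.29. Egr1 stood at 36.6, 46.5 and 38.2 CPM in the controls and 112, 142 and 208 CPM in Pea3 TKO (1.93, SE 0.22, adjusted p = 4.37e-04). Junb gave 2.07 (adjusted p = 2.39e-04) and Jun 1.83 (adjusted p = 5.36e-04). Myc stood at 267, 247 and 234 CPM in the controls and 102, 128 and 166 CPM in Pea3 TKO (-0.92, adjusted p = 0.00437). Egr1, Junb and Jun were also called when Pea3 TKO 3 alone was set against the controls. In that setting 4 of the 14 were called in all.

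The cascades that the phosphatases act on were compared as lists too. In the Ras-ERK cascade, 3 of 26 genes tested rose (Rras, Map2k1 and Mapk3) and 2 fell, Mapk6 among them, with a median of 0.056. Both counts lie near the shares over all genes tested, 13.6% higher and 11.3% lower. Mapk3, which encodes ERK1, rose from 58.9 ± 0.263 to 85.2 ± 2.37 CPM (0.53, adjusted p = 0.0105).

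In the JNK and p38 cascade, 8 of 28 genes rose (Mapk10, Mapk12, Mapk13, Mapk8ip1, Mapkapk2, Mapkapk3, Gadd45a and Gadd45b) and Map3k7 fell, with a median of 0.25. The shares over all genes tested were again 13.6% higher and 11.3% lower. Mapkapk3, a kinase that p38 activates, stood at 39.0, 25.9 and 23.1 CPM in the controls and 86.4, 73.6 and 67.7 CPM in Pea3 TKO (1.37, SE 0.21, adjusted p = 0.00174). Mapk13, the epithelial p38 delta, gave 0.62 (adjusted p = 0.0239). Mapk10, the neural JNK, was near the floor, at 0.0564, 0 and 0 CPM in the controls and 0.889, 2.87 and 0.764 CPM in Pea3 TKO. The count of 9 called genes fell to 2 without control 2, 1 without control 3, 3 without Pea3 TKO 1 and 4 without Pea3 TKO 2, so this list rests on single samples.

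**Figure D5:**
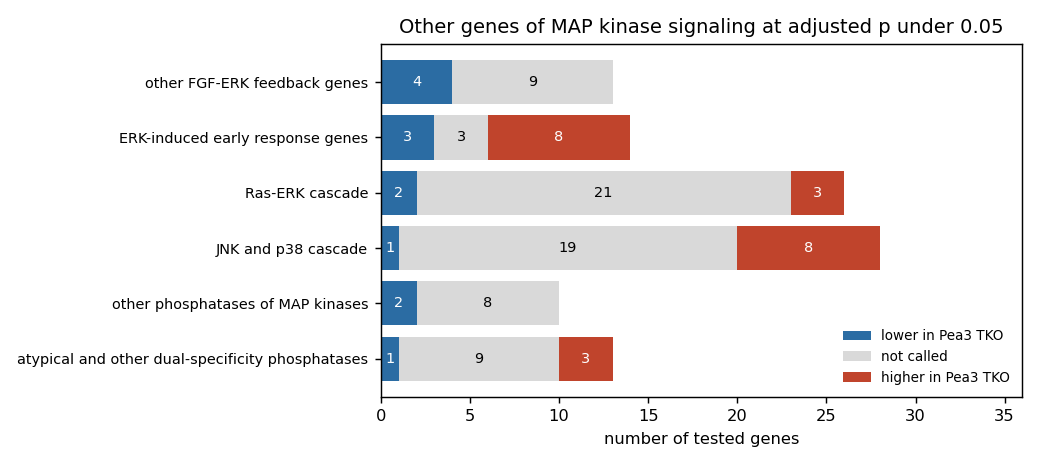
Number of tested genes called lower (blue), not called (grey) and called higher (red) in Pea3 TKO at an adjusted p under 0.05 in 6 lists of MAP kinase signaling genes. The feedback genes have 4 lower and none higher, and the early response genes 8 higher and 3 lower. Over all 13087 genes tested, 11.3% were lower and 13.6% higher.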

How the data were processed

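RNA-seq of 3 control and 3 Pea3 TKO samples was analyzed. The authors deposited 1 table of raw counts per gene symbol for each sample, without normalization. The labels describe amplification with the Ovation RNA-seq System V2, poly-A selection and Illumina sequencing, and the submitters' processing notes name bcl2fastq 2.17, STAR 2.5.2b, featureCounts 1.5.0-p3, DESeq and mm10. The annotation, strand setting and treatment of multi-mapping reads are not given in the sources used here. Reads carry no molecular identifiers, so floors cover counting error only.

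Genes were kept by filterByExpr of edgeR 4.0.16 (R 4.3.3), which left 13087 of 23420 (6527 were at 0 in every sample), normalized by TMM and compared by its quasi-likelihood test in a model of genotype alone, with p-values adjusted by Benjamini-Hochberg over all genes tested. Total counts ran from 14194775 to 17860140, and replicates varied with a coefficient of 0.259 by the common dispersion. Chi-square per degree of freedom was at least 15.5 between replicates of a group, so no library was held more than once. Exonic lengths and positions come from GENCODE M21 (GRCm38), and upstream sequences from RefSeq. Deviations of same-numbered samples from their group means correlated at 0.144, -0.064 and 0.045, so the replicate numbers were not taken as pairs.

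Members, lists and tests were chosen with earlier results of these data known. All 10 members are reported. From other lists, up to 5 genes were eligible to be named, the 3 with the smallest p and the 2 with the highest mean, and genes given only as called in a list are named after their values were seen. Profiles were compared for the top ERK-selective and top nuclear member among genes with a mean of at least 10 CPM. Alternatives covered DESeq2 1.42.0, voom of limma 3.58.1, other size factors, low-count filters, a threshold on fold change, the replicate block, a Y-linked covariate and leaving out each sample. The fit restricted to samples with Y-linked counts, other exon lengths and Pea3 TKO 3 alone were added after seeing the data. The scripts were tested on simulated counts. Some genes of the lists are not reported here by name.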

Additional observations from a re-analysis of the deposited data

How the results depend on the processing

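Over 16 alternatives, Dusp6 was called lower in each (adjusted p up to 0.00161), and Dusp1 and Dusp2 kept their sign without a call. DESeq2, voom, the size factors and the low-count filters left 3 members higher and 3 lower. With the replicate block 3191 genes were called and Dusp9 lost its call (-0.69, adjusted p = 0.0509), while the other members kept theirs. Leaving out single samples gave 1948 to 3344 genes called, 1131 to 1948 higher and 799 to 1417 lower, with the lowest counts without control 2 or control 3, and 1 to 3 members higher. Requiring an absolute log2 fold change above 1 left 1564 genes, 1081 higher and 483 lower. With the Y-linked covariate 799 genes were called (504 higher, 295 lower), with 0 members higher and 1 lower. Only the samples with Y-linked counts gave 597 genes (315 higher, 282 lower), again with 0 members higher and 1 lower. The cause was not tested, though fewer samples enter that fit. The ERK-selective share of the family differed by -17.3 percentage points, and by -11.6 for Pea3 TKO 3 alone. Signs turned for genes near 0. Dusp5 gave 0.021 with upper-quartile factors, 0.015 with library totals, 0.012 with the block and -0.17 to 0.33 without single samples. Dusp7 gave -0.058 to 0.064 without single samples and -0.012 with the covariate. Lengths over all transcripts exchanged Dusp9 and Dusp1 in the controls and Dusp5 and Dusp2 in Pea3 TKO, pairs whose ranges overlap. Upper-quartile factors moved the share of higher genes among those called from 54.6 to 59.0%. Dusp2 and Dusp5 held 23 to 119 counts per sample, and whether depth limits them was not tested.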

Other observations

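Dual-specificity phosphatases outside the MAP kinase family, many of them small enzymes without a kinase-binding domain, were also measured. Of 20 listed, 13 were tested, 3 were higher in Pea3 TKO (Dusp18, Dusp22 and Dusp23) and Dusp12 was lower, with a median log2 fold change of 0.26. Dusp18 stood at 7.05, 8.35 and 11.4 CPM in the controls and 26.1, 23.9 and 18.3 CPM in Pea3 TKO (1.35, SE 0.27, adjusted p = 0.00611). Dusp22, which acts in the JNK pathway, stood at 31.2, 23.7 and 28.7 CPM in the controls and 62.8, 49.6 and 43.3 CPM in Pea3 TKO (0.90, adjusted p = 0.00794). Dusp14 stood at 64.7 to 77.6 CPM in the controls and 68.1 to 71.8 CPM in Pea3 TKO. None of the 13 was called in the fit of samples with Y-linked counts, where Dusp18 gave 1.05 (edgeR quasi-likelihood, adjusted p = 0.185) and Dusp22 gave 0.65 (adjusted p = 0.185).

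Tyrosine and serine/threonine phosphatases that also act on MAP kinases showed 2 lower genes of 10 tested, Ptpn2 and Ptpn12, and none higher. Ptpn2 stood at 164, 154 and 167 CPM in the controls and 90.9, 94.7 and 102 CPM in Pea3 TKO (-0.75, SE 0.11, adjusted p = 0.00145). Ppp2ca, the catalytic subunit of PP2A, stood at 708 to 754 CPM in the controls and 587 to 715 CPM in Pea3 TKO (-0.16, adjusted p = 0.360).

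Of 9 heat shock and stress genes, 4 were higher (Hspa1a, Hspa1b, Hspb1 and Ddit4) and none lower, with a median of 0.088. Hspb1, a small chaperone that lies downstream of p38, stood at 28.6, 13.7 and 8.13 CPM in the controls and 191, 121 and 103 CPM in Pea3 TKO (3.04, SE 0.41, adjusted p = 9.96e-04), with control 1 the highest control as for Dusp10.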
